A study of Homo sapiens with 9 samples.

Results

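Keratins are the intermediate filament proteins of epithelial cells. A filament is built from pairs of an acidic type I and a basic type II keratin, and the pair a cell makes follows its lineage: KRT8 with KRT18 in simple and luminal epithelium, KRT5 with KRT14 or KRT15 in basal layers, and a separate hair set in the cortex and cuticle of the hair shaft. In the prostate, KRT8 and KRT18 mark luminal cells, KRT5, KRT14 and KRT15 mark basal cells, and KRT19 and KRT7 occur in simple and ductal epithelia.

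The genes described here are 10 keratins: the type II genes KRT7, KRT8, KRT75, KRT80 and KRT81 and the type I genes KRT15, KRT17, KRT18, KRT19 and KRT38. They were chosen by gene name, with results of these libraries already known, so their values are given as a description and without p-values. They are 10 of 56 keratin genes and of 27111 genes in the expression tables. Of the 10, 9 had enough reads for testing, as had 20 of the 56 keratins and 17108 of all genes, and KRT17 did not.

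RNA-seq was made from multicellular tumor spheroids (MTSs) of PC-3, a cell line from a bone metastasis of human prostate carcinoma. Lentiviral transduction gave 3 stable lines. Empty carries the vector alone, NF-YAl overexpresses the long splice form of NF-YA, the DNA-binding subunit of the CCAAT-binding factor NF-Y, and NF-YAs overexpresses the short form. Each line has 3 libraries. Their letters are A, B and C for Empty, the same for NF-YAs, and A, B, D for NF-YAl. All lines kept their endogenous NF-YA gene, and the transduced forms are murine. By the study's methods each library holds RNA of pooled spheroids and the 3 libraries of a line come from independent experiments. Each isoform is represented by a single stable line, so the tests cannot tell an isoform from its line.

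Totals ranged from 18076979 to 27163976 expected counts per library. NFYA had 89.2 to 96.7 CPM (counts scaled to library size) in Empty, 286.9 to 383.1 in the NF-YAl line and 254 to 264.5 in NF-YAs, in which an unknown part comes from the transduced murine form. As a check of the cell line, the prostate secretory marker KLK3 was at 0 counts in all 9 libraries, KRT8 and KRT18 were abundant, and the epithelial adhesion gene EPCAM was low, at 0.945 to 1.05 CPM in Empty. Of 10 markers of fibroblasts, endothelium and leukocytes, 7 had at most 37 counts in any library. One of the 7, the fibroblast collagen COL1A2, was called higher in NF-YAs, with 21, 17 and 37 counts against 3, 3 and 7 in Empty (log2FC 2.78, adjusted p = 0.00087). The other 3 markers, PECAM1, VWF and CD68, reached 186, 184 and 1797 counts, and they were not even across the lines either: PECAM1 lay at 1.59 to 2.12 CPM in NF-YAs against 5.49 to 7.32 in Empty, VWF at 0.493 to 0.941 CPM in NF-YAl against 6.42 to 7.31 in Empty, and CD68 at 20.3 to 35.8 CPM in the NF-YA lines against 53.1 to 70.7 in Empty. Their part in the results was not tested. In these bulk samples, fewer cells that express a keratin and less keratin RNA per cell cannot be told apart.

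NF-YAl replicate D stood apart in its RNA make-up. Genes under 400 bases took 22.1% of its deposited TPM (transcript abundances scaled to the same sum), against 45.5 to 59.5% in the other 8 libraries, so the deposited TPM of longer genes such as keratins are high in D. Levels below are therefore CPM after TMM scaling. Where genes are compared with each other, the level is CPM per kilobase (kb) of effective length.

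KRT38 had the largest |log2FC| against Empty of any tested keratin, and its start region and its nearest paralog are shown first because later results refer to them. The RefSeq promoter table (GRCh38.p14) matched 3 of the 10 genes, KRT8, KRT38 and KRT75. It gives 1 start for each gene, and the main transcript of KRT8 starts 44878 bases inside the annotated gene (GENCODE on GRCh37), so the KRT8 entry was not used. KRT7, KRT15, KRT17, KRT18, KRT19, KRT80 and KRT81 had no entry. The 250 bases before the start are printed 5′ to 3′ on the gene's strand, for KRT38 at chr17:41440984-41441233 (minus strand) and for KRT75 at chr12:52434372-52434621 (minus strand). Capitals mark CCAAT or its reverse complement ATTGG, the core letters that NF-Y is known to bind.
KRT38: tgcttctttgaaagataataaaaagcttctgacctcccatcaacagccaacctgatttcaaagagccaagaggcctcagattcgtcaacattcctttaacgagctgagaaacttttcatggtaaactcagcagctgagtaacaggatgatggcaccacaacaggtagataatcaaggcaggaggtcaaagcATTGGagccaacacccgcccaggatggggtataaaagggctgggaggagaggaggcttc
KRT75: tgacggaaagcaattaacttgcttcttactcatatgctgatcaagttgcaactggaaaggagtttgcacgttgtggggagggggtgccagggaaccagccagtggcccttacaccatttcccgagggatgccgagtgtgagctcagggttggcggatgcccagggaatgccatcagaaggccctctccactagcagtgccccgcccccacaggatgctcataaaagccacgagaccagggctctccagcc

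KRT38 held 1 ATTGG, 59 bases upstream of the start, and KRT75 held neither motif. Across all 35116 promoters in the table, 11240 (32%) held at least 1 of these letters on either strand in the same window, so a single match is common. The match is a description of the letters and not a measured site.

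Some hair keratins, such as KRT38 and KRT37, have closely similar coding sequences, and that bears on how their reads were counted. The first 90 coding bases of KRT38 are printed with those of its nearest relative, KRT37, from the GENCODE transcripts on GRCh37. Capitals mark the bases that differ.
KRT38: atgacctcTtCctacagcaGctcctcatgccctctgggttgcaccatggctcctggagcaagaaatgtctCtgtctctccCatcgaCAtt
KRT37: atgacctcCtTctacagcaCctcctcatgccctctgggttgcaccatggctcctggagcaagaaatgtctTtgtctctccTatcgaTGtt

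KRT38 and KRT37 differed at 7 of these 90 bases. Over the whole coding sequence KRT81 was 90.1% identical to KRT86 and 89.3% identical to KRT83, and KRT38 was 91.6% identical to KRT37. By contrast KRT7 and KRT8 were 68.2% identical, KRT15 and KRT19 62.9%, and the filament partners KRT8 and KRT18 49.3%.

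The keratins of the 3 lines differed in both amount and composition. All 56 keratin genes summed to 2081 ± 73.6 CPM in Empty, 1279 ± 112 in the NF-YAl line and 1209 ± 93.1 in NF-YAs (mean ± SD, n = 3 throughout), and every library of either NF-YA line lay below every Empty library. The 10 genes described here made up 91.9 to 94.6% of that sum in every library. A gene was called differentially expressed at a Benjamini-Hochberg adjusted p under 0.01 and a |log2 fold change (log2FC)| above 1 in edgeR's quasi-likelihood test over all tested genes. By that rule 5 of the 9 tested members fell in NF-YAl (KRT8, KRT38, KRT75, KRT80 and KRT81), against 3.48% of all tested genes, and 0 rose, against 4.73%. In NF-YAs 2 of 9 fell (KRT7 and KRT38), against 3.83% of all genes, and 0 rose, against 5.42%. Since the genes were chosen with these comparisons known, nothing is read from those shares. Both comparisons use the same Empty libraries.

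**Figure D1:**
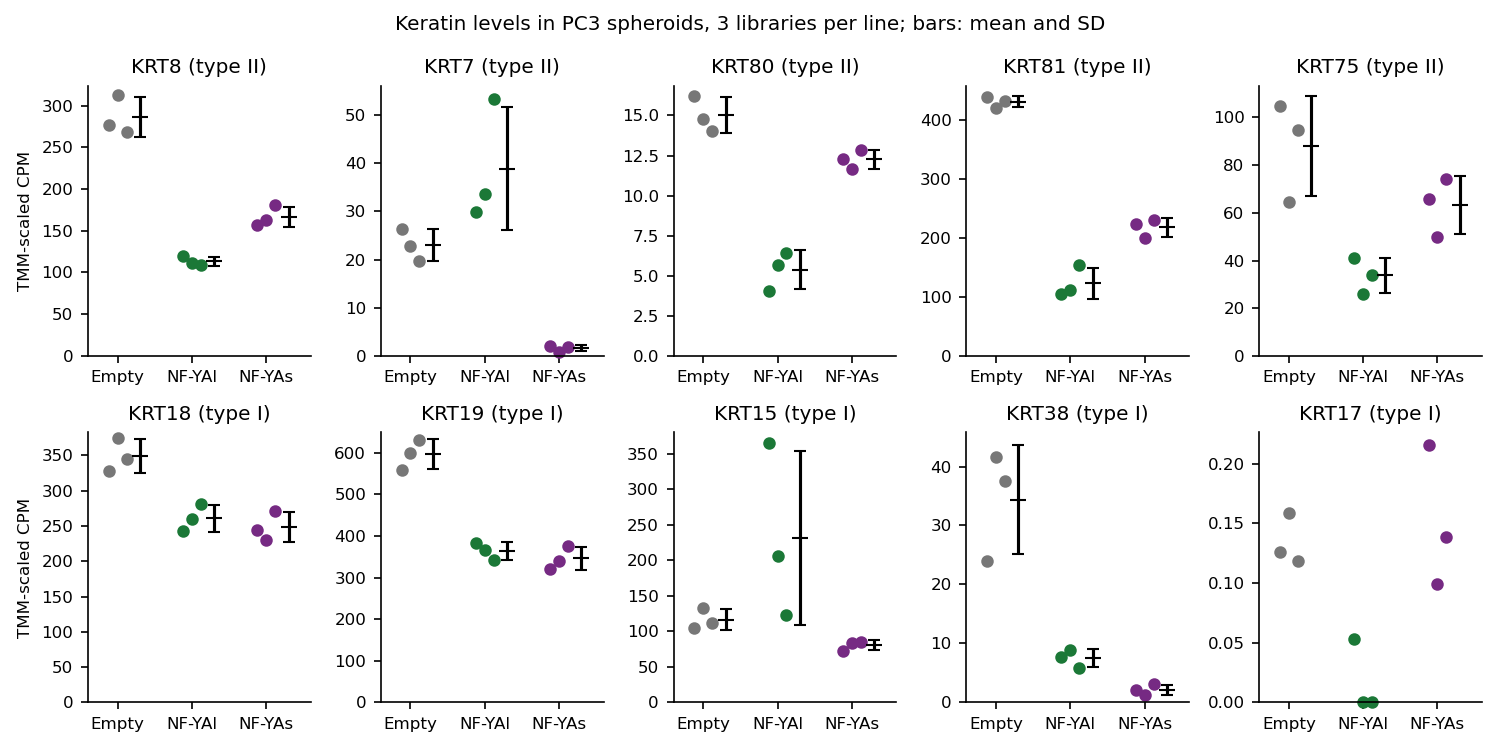
TMM-scaled CPM (vertical axes, linear from 0) of the 10 keratins in each of the 3 libraries of Empty, NF-YAl and NF-YAs, with mean and SD beside the points except for KRT17. KRT7 lay at 0.896 to 2.05 CPM in NF-YAs only, KRT8, KRT80 and KRT81 were lowest in NF-YAl, and the NF-YAl libraries of KRT15 spread from 123.8 to 365.5 CPM.

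KRT8, the type II partner of KRT18 in simple epithelium, had 277.2, 313.2 and 268 CPM in the Empty libraries, 119.7, 111.8 and 109.4 in the NF-YAl line and 157.3, 163.1 and 180.5 in NF-YAs. The 3 lines did not overlap, with Empty highest and NF-YAl lowest. Such separation was common, so it is given here and below as a description. Of all tested genes, 42.4% did not overlap between NF-YAl and Empty and 56.4% between NF-YAs and Empty. Between the NF-YA lines the share was 39.5%. KRT8 fell 2.52-fold in NF-YAl, a log2FC of -1.33 ± 0.098 (SE). In NF-YAs its log2FC was -0.78 ± 0.096, under the fold limit.

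KRT18, the type I partner of KRT8, had 327.6, 374.9 and 344.1 CPM in Empty, 242.1, 259.5 and 280.5 in the NF-YAl line and 244.8, 229.4 and 270.7 in NF-YAs. Both NF-YA lines lay below Empty and overlapped each other. The log2FC were -0.42 ± 0.10 in NF-YAl and -0.49 ± 0.10 in NF-YAs, both under the fold limit.

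The KRT8 and KRT18 levels thus moved by different amounts, which a ratio per library shows. KRT8 over KRT18, each in CPM per kb, was 0.659, 0.655 and 0.607 in Empty, 0.379, 0.333 and 0.303 in the NF-YAl line and 0.495, 0.548 and 0.517 in NF-YAs. The ranges of the 3 lines did not overlap, and the mean ratio in NF-YAl (0.338 ± 0.0384) was the lowest. The ratio uses reads of both genes in the same library and does not depend on the scaling between libraries.

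KRT19, a type I keratin of simple and ductal epithelium that lacks the usual tail domain, was the most abundant keratin per kb in every library. It had 558.4, 598.4 and 631.3 CPM in Empty, 383.6, 367.1 and 341.2 in the NF-YAl line and 320.5, 340.7 and 375.9 in NF-YAs. The NF-YA lines overlapped each other and lay below Empty, with a log2FC of -0.71 ± 0.098 in NF-YAl and -0.79 ± 0.098 in NF-YAs, under the fold limit. The difference between the NF-YA lines was 0.07 with a 95% interval of -0.14 to 0.28 for KRT19, and 0.07 with an interval of -0.15 to 0.29 for KRT18.

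KRT7, a type II keratin of simple and ductal epithelium, separated the NF-YA lines more than any other keratin here. Its values were 26.5, 22.9 and 19.7 CPM in Empty, 29.8, 33.5 and 53.4 in the NF-YAl line and 2.05, 0.896 and 1.84 in NF-YAs. All NF-YAl libraries lay above all Empty libraries, and all NF-YAs libraries lay far below both. KRT7 fell 14.4-fold in NF-YAs (log2FC -3.85 ± 0.30), while its log2FC of 0.76 ± 0.24 in NF-YAl stayed under the fold limit. Between the NF-YA lines the difference was 24.4-fold, or 4.61 ± 0.30 on the log2 scale. The NF-YAs libraries still held 18 to 40 reads of KRT7.

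KRT15, a type I keratin of basal cells and of hair follicle stem cells, had 104.9, 132.6 and 112.1 CPM in Empty, 365.5, 206.3 and 123.8 in the NF-YAl line (A, B and D) and 72.4, 84.3 and 85 in NF-YAs. NF-YAl replicates A and B lay above Empty and replicate D lay within its range, while NF-YAs lay below Empty without overlap. The log2FC of 0.99 ± 0.33 in NF-YAl and -0.53 ± 0.33 in NF-YAs did not pass. The value against Empty was 1.296 without NF-YAl replicate D, which passed, and 0.50 without NF-YAl replicate A, which did not. Between the NF-YA lines the difference was 1.52 ± 0.33 and just missed the adjusted p limit. It passed without replicate D (1.83) or without replicate A (1.03) of NF-YAl, with DESeq2 (1.52), with at least 10 counts required in every library (1.53), at an adjusted p under 0.05 and with limma on log2(TPM + 1) (1.501).

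KRT17, a type I keratin of basal and stressed epithelium, was close to absent. It had 3, 4 and 3 counts in Empty, 1, 0 and 0 in the NF-YAl line and 4, 2 and 3 in the NF-YAs line. At such counts no difference was detectable. The libraries at 0 allow up to 3 counts each.

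KRT81, a type II keratin of the hair cortex that many carcinoma lines express, was the third most abundant of the 10 genes per kb in Empty. It had 439.3, 420.5 and 432 CPM in Empty, 104.5, 110.9 and 153.6 in the NF-YAl line and 223.5, 200.2 and 230.6 in NF-YAs. The lines did not overlap, in the order Empty, NF-YAs, NF-YAl. KRT81 fell 3.50-fold in NF-YAl (log2FC -1.81 ± 0.13), and in NF-YAs its log2FC of -0.98 ± 0.13 stayed just under the fold limit. Without NF-YAs replicate C that value was -1.03 and passed.

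KRT38, a type I hair keratin, had 23.9, 41.6 and 37.5 CPM in Empty, 7.64, 8.91 and 5.92 in the NF-YAl line and 2.15, 1.29 and 3.04 in NF-YAs. The lines did not overlap, in the order Empty, NF-YAl, NF-YAs, the reverse of KRT81 for the NF-YA lines. KRT38 fell 4.59-fold in NF-YAl (log2FC -2.20 ± 0.26) and 15.8-fold in NF-YAs (log2FC -3.98 ± 0.30). It was higher in NF-YAl than in NF-YAs by 1.78 ± 0.30, and that call was lost without NF-YAl replicate A (1.77) or NF-YAs replicate A (1.77), where the adjusted p limit was missed.

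KRT75, a type II keratin of the companion layer of the hair follicle, had 105, 64.6 and 94.6 CPM in Empty, 41, 26.1 and 34 in the NF-YAl line and 65.8, 50 and 74.1 in NF-YAs. NF-YAl lay below both other lines, and NF-YAs overlapped Empty. KRT75 fell 2.61-fold in NF-YAl (log2FC -1.39 ± 0.22), and its log2FC in NF-YAs was -0.48 ± 0.21.

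KRT80, a type II keratin found in many epithelia and near cell junctions, had 16.2, 14.8 and 14 CPM in Empty, 4.03, 5.68 and 6.45 in the NF-YAl line and 12.3, 11.6 and 12.9 in NF-YAs. The lines did not overlap, though NF-YAs lay close under Empty. KRT80 fell 2.77-fold in NF-YAl (log2FC -1.47 ± 0.17), and its log2FC in NF-YAs was -0.29 ± 0.16. It was lower in NF-YAl than in NF-YAs by 2.26-fold, a log2FC of -1.18 ± 0.17. In that direct comparison 2 of the 9 tested members were higher in NF-YAl (KRT7 and KRT38), against 1.69% of all tested genes, and 1 was lower (KRT80), against 2.82%.

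**Figure D2:**
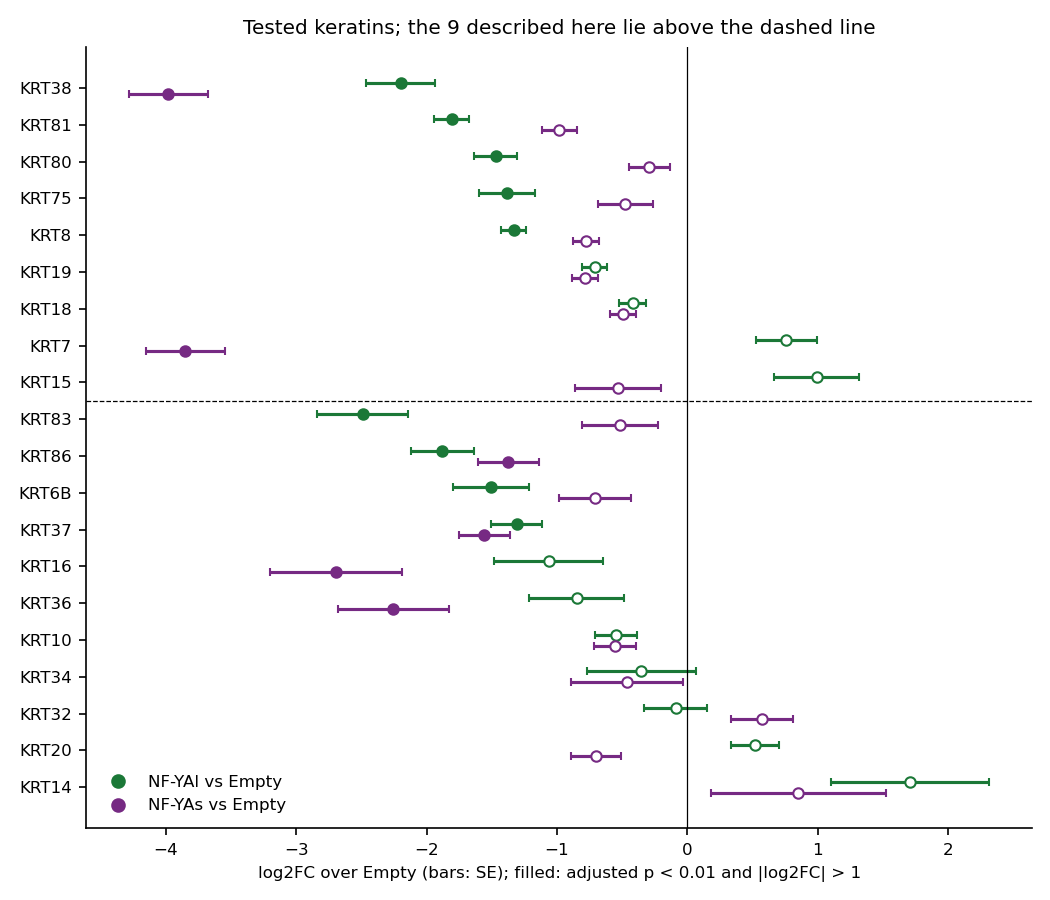
log2FC over Empty (horizontal axis) with SE for the 20 tested keratins, in NF-YAl (green) and NF-YAs (purple). Filled circles passed the thresholds, and in NF-YAl 9 keratins did so, each below 0, while KRT7 and KRT38 lay lowest in NF-YAs at -3.85 and -3.98.

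Ranked by CPM per kb in Empty, the order was KRT19 (452.3), KRT18 (268), KRT81 (245.1), KRT8 (171.7), KRT15 (69.1), KRT75 (44.6), KRT7 (14.9), KRT38 (12.8), KRT80 (4.04) and KRT17 (0.0945). Only KRT7 and KRT38 overlapped between neighbours in that order. In NF-YAl the order was KRT19 (276.4), KRT18 (200.3), KRT15 (137.7), KRT81 (70), KRT8 (67.4), KRT7 (25.1), KRT75 (17.1), KRT38 (2.79), KRT80 (1.45) and KRT17 (0.0125). There KRT18, KRT15, KRT81 and KRT8 overlapped from each to the next, as did KRT7 and KRT75. In NF-YAs KRT80 (3.30) ranked above KRT7 (1.04) and KRT38 (0.808), of which the last pair overlapped, and the rest kept the order of Empty.

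Relative to their level in Empty, the summed type II keratins were lower than the summed type I keratins in both NF-YA lines. Type II genes summed to 488.7 ± 10.9 CPM per kb in Empty, 183.5 ± 21.3 in the NF-YAl line and 265.3 ± 20.8 in NF-YAs. Type I genes summed to 879.1 ± 60.7, 674.8 ± 83.2 and 542.2 ± 41.5 in the same order. The ratio of type II to type I was 0.618, 0.531 and 0.526 in Empty, 0.228, 0.254 and 0.348 in the NF-YAl line and 0.513, 0.470 and 0.485 in NF-YAs. The 3 lines did not overlap in that ratio, NF-YAs lying just under Empty.

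Within type II, the share of KRT7 was 3.04 ± 0.383% in Empty, 13.5 ± 2.76% in the NF-YAl line and 0.386 ± 0.136% in NF-YAs. KRT81 took 50.2 ± 1.08% in Empty, 37.9 ± 3.81% in the NF-YAl line and 47.1 ± 1.29% in NF-YAs, so KRT8 and KRT81 had nearly equal shares in NF-YAl (KRT8 37.1 ± 5.27%). Within type I, KRT15 took 7.85 ± 0.662% in Empty, 19.7 ± 8.19% in the NF-YAl line and 8.86 ± 0.686% in NF-YAs, with the lowest NF-YAl library (D, 12.2%) still above the highest library of the other lines (9.65%).

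**Figure D3:**
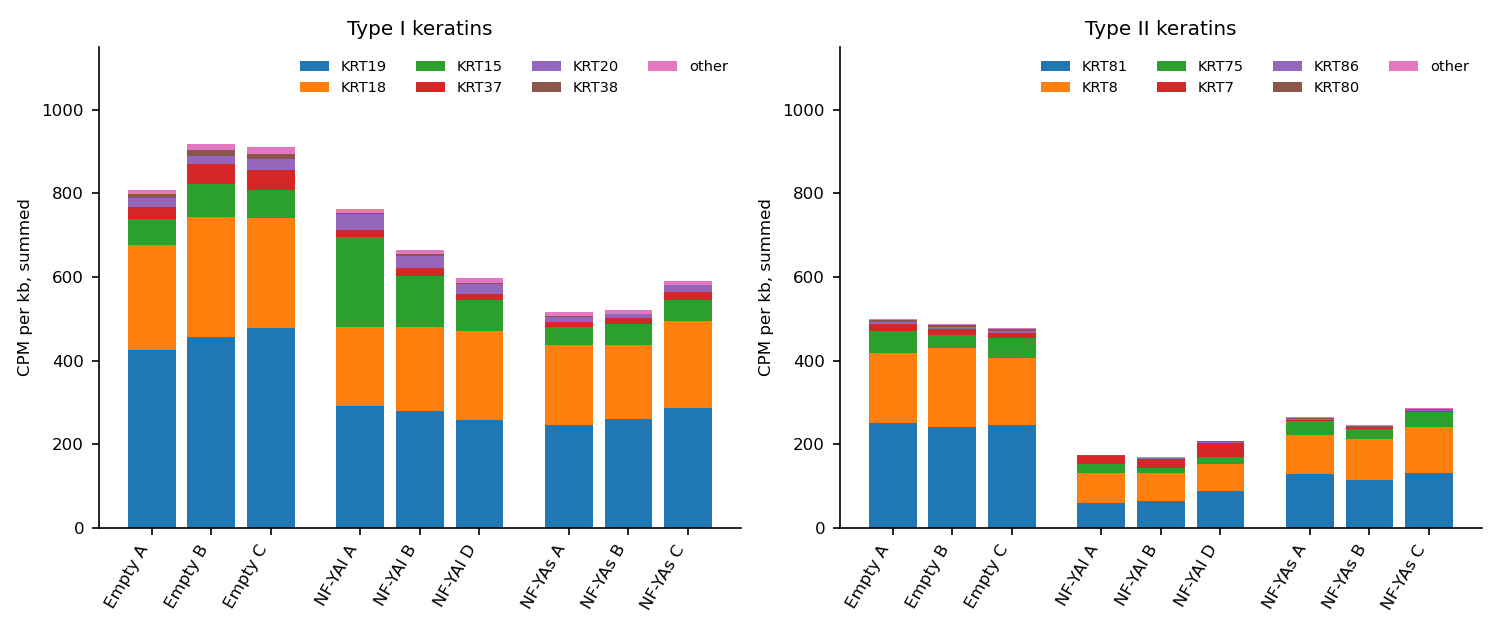
Summed CPM per kb (vertical axes) of type I keratins (left) and type II keratins (right) in each library, stacked by gene. Type II sums averaged 488.7 in Empty, 183.5 in the NF-YAl line and 265.3 in NF-YAs, and KRT7 takes a larger part of the bars in NF-YAl (13.5% on average) than in Empty (3.04%).

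Among the other 46 keratins, 11 were tested. Of these 11, 4 fell in NF-YAl and 4 in NF-YAs, beside 3.48% and 3.83% of all tested genes, and 0 rose in either line. Those that fell include KRT37, KRT83 and KRT86, close relatives of the members KRT38 and KRT81. Reads were divided among these relatives in counting, as described below, so their calls are not independent of the chosen genes. An unadjusted p under 0.05 was found for 9 and 8 of the 11, beside 7212 and 7683 of all 17108 tested genes, and DESeq2 also found 0 that rose. The median log2FC of the 11 was -0.85 in NF-YAl and -0.70 in NF-YAs, beside 0.011 and -0.0026 over all tested genes. With the 9 tested members, which were chosen with these comparisons known, 9 of 20 fell in NF-YAl and 6 of 20 in NF-YAs, and the counts by type and for hair keratins below include those members. Among type II keratins 7 of 8 fell in the NF-YAl line and 2 of 8 in the NF-YAs line. Among type I keratins 2 of 12 fell in the NF-YAl line and 4 of 12 in the NF-YAs line. Whether the types differ in this was not tested.

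Hair keratins, from either type, were 8 of the 20 tested genes. Of these, 5 fell in the NF-YAl line and 4 in the NF-YAs line, beside 3.48% and 3.83% of all tested genes. KRT37, the relative of KRT38, had 45.8 to 77.8 CPM in Empty and fell in both lines, with a log2FC of -1.31 ± 0.20 (adjusted p = 0.000382) in NF-YAl and -1.56 ± 0.20 (adjusted p = 0.000105) in NF-YAs. KRT86, the relative of KRT81, had 10.2 to 12.2 CPM in Empty and fell in both lines as well, by log2FC of -1.88 (adjusted p = 8.39e-05) and -1.37 (adjusted p = 0.000617). KRT83 had 36.7 to 47.6 counts in Empty and 4.64 to 9.83 in NF-YAl, where it fell (log2FC -2.49, adjusted p = 0.000165), and KRT36 fell in NF-YAs (log2FC -2.25, adjusted p = 0.00124). KRT32 (log2FC -0.09 and 0.57) and KRT34 (-0.35 and -0.46) did not pass in NF-YAl or NF-YAs.

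Of the other epithelial keratins, KRT6B, a keratin of activated epidermis, fell in NF-YAl (log2FC -1.51, adjusted p = 0.00165) from 62.5 to 85.7 counts in Empty, a call that was lost without Empty replicate C (log2FC -1.41), where the adjusted p limit was just missed. KRT16, another keratin of activated epidermis, fell in NF-YAs (log2FC -2.69, adjusted p = 0.00124), where it had 3 to 6 counts. KRT20, a keratin of gut and urothelium, was higher in NF-YAl than in NF-YAs (log2FC 1.22, adjusted p = 0.00104), with 40.9 to 63.5 against 17.2 to 27.3 CPM. KRT10, a keratin of differentiated epidermis, had the same log2FC of -0.55 in both lines (adjusted p = 0.022 and 0.0188) and did not pass. KRT14, the basal keratin, had at most 20 counts in any library and a log2FC of 1.71 in NF-YAl (adjusted p = 0.0462), which did not pass. The remaining 36 keratins were not tested. None of these 36 had more than 20 counts in a library, and 10 of them were at 0 in all 9 libraries, which allows up to 3 counts per library. Keratin-associated proteins, which embed hair keratins in the hair shaft, are 93 genes in the tables, of which 19 were tested and none had more than 109 counts in a library.

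The tested type II keratins and KRT18 lie in 1 cluster on chromosome 12 (chr12:52562780-53346690) and the other type I keratins in 1 cluster on chromosome 17 (chr17:38810917-39796451), both on GRCh37. In the chromosome 12 cluster the 9 tested keratins had a median log2FC of -1.47 in NF-YAl and -0.71 in NF-YAs, while the 10 tested genes on each side had medians of -0.048 and 0.080. Of those 20 flanking genes, 2 fell in the NF-YAl line and 1 in the NF-YAs line. In the chromosome 17 cluster the 11 tested keratins had medians of -0.55 and -0.70, the 20 flanking genes -0.39 and -0.16, and the 5 other tested genes inside the cluster -0.51 and 0.18. KRT7 and KRT80, next to each other among tested genes on chromosome 12, had log2FC of -3.85 and -0.29 in NF-YAs, and 0.76 and -1.47 in NF-YAl. No test of position was made.

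Because RSEM divides a read among all transcripts it matches, the counts of close relatives are not independent. The expected counts of KRT37 and KRT38 added up to a whole number (within 0.02) in 9 of 9 libraries, although KRT37 alone was whole in 1 of 9, which shows reads divided between these genes. The same held for KRT81, KRT83, KRT85 and KRT86 as a group of 4. KRT7, KRT15, KRT17, KRT19, KRT75 and KRT80 were whole by themselves in 9 of 9 libraries, so their counts hold no divided reads at that tolerance. KRT8 and KRT18 were whole in 0 of 9.

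The sequences show how much the genes share. Of all 50-base windows in the KRT81 coding sequence, 54% occurred in another counted gene, and 49.2% occurred in KRT86. The share was 14.1% for KRT38, with KRT37 as the only other gene, and at most 2.09% for the other 8. KRT8 and KRT18 are different in kind: 48.4% and 40.4% of their windows occurred in some other annotated gene, among them 33 and 43 annotated pseudogenes, nearly all of them outside the transcripts the authors counted. KRT81 lies inside the span of KRT86 on the opposite strand, KRT8 and KRT18 overlap on opposite strands, and KRT7 overlaps KRT86 on the same strand. The libraries were stranded, but whether counting used the strand is not given in the sources used here, so reads of such neighbours may be mixed.

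Relatives were then summed, so that the division of reads between them no longer matters, but each sum follows its most abundant genes. KRT81 with KRT83, KRT85 and KRT86 had a log2FC of -1.81 in NF-YAl and -0.99 in NF-YAs, close to KRT81 alone. KRT38 was summed with KRT37 and the other type I hair keratins KRT31, KRT32, KRT33A, KRT33B, KRT34, KRT35 and KRT36. That sum fell by less than KRT38 alone, with -1.46 in NF-YAl and -1.85 in NF-YAs. Its difference between the NF-YA lines was 0.39 and no longer passed. KRT37 had more counts than KRT38 in every library and changed less (log2FC -1.31 and -1.56). The sum therefore lies nearer to KRT37 by construction, and it cannot show how far the KRT38 values rest on divided reads. KRT38 over KRT37 in CPM per kb was 0.304, 0.333 and 0.282 in Empty, 0.177, 0.176 and 0.141 in the NF-YAl line and 0.0655, 0.0375 and 0.0644 in NF-YAs. These ranges did not overlap between lines, so KRT38 and KRT37 differed in how far they changed as counted. The 4.64 to 47.6 counts of KRT83 are small beside the 1971 to 10977 of KRT81, and how much of them comes from divided reads was not tested.

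At the transcript level, KRT8 is listed with 4 transcripts. NM_002273.3 took 93.2, 94.1 and 90.7% of the gene in Empty, 85.2, 88 and 86% in the NF-YAl line and 88, 86.7 and 91.6% in NF-YAs. The noncoding NR_045962.1 took 6.34, 5.33 and 8.13% in Empty, 13.3, 11.5 and 11.2% in the NF-YAl line and 10.5, 12 and 7.6% in NF-YAs. NF-YAl and Empty did not overlap in either share, and NF-YAs overlapped Empty. By a two-sided exact permutation test the NF-YAl shares of NR_045962.1 differed from Empty at p = 0.1, the smallest that 3 against 3 libraries allow, or 0.48 after adjustment over 12 tests. In a transcript-level edgeR fit, NM_002273.3 had a log2FC of -1.44 ± 0.10 in NF-YAl and NR_045962.1 one of -0.46 ± 0.18.

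KRT18 was listed with a pair of transcripts, and the share of NM_000224.2 ranged from 64.2 to 84.2% in NF-YAl, 65.8 to 79% in Empty and 60.8 to 76.2% in NF-YAs, overlapping in all lines. KRT80 was listed with a pair as well, and NM_001081492.1 took 26.3 to 64.2% of the gene in Empty alone, so no difference in share was detectable. KRT7, KRT15, KRT17, KRT19, KRT38, KRT75 and KRT81 have 1 listed transcript each.

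Keratin filaments are anchored by desmosomes and linker proteins. Of 19 tested linker and desmosome genes, 3 fell and 0 rose in NF-YAl, and 2 fell and 0 rose in NF-YAs. Over all tested genes 3.48% fell and 4.73% rose in NF-YAl, and 3.83% fell and 5.42% rose in NF-YAs. The median log2FC of the 19 was -0.40 and -0.46, beside 0.011 and -0.0026 over all tested genes. DSP, which ties keratin filaments to desmosomes, had 98.9 to 102.5 CPM in Empty and 7.27 to 34.4 in NF-YAl, where it fell (log2FC -2.47 ± 0.49, adjusted p = 0.00716). In NF-YAs DSP had 49.4 to 63.4 CPM, below Empty without overlap, with a log2FC of -0.88 (adjusted p = 0.182). PPL, a linker of the same family, fell in both lines (log2FC -1.22, adjusted p = 3.86e-05, and -1.39, adjusted p = 1.29e-05). COL17A1, a hemidesmosome collagen, fell in NF-YAl (log2FC -1.72, adjusted p = 3.26e-05), and DSC2, a desmosomal cadherin, fell in NF-YAs (log2FC -1.64, adjusted p = 5.57e-06).

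JUP, a desmosomal plaque protein, had log2FC of -0.48 and -0.87 in NF-YAl and NF-YAs, and PLEC, the linker plectin, -0.62 and -0.11, none of which passed the fold limit. VIM, the intermediate filament of mesenchymal cells, had 887.7 to 1018 CPM in Empty, 961.2 to 1408 in the NF-YAl line and 1302 to 1438 in the NF-YAs line, with log2FC of 0.28 and 0.55 that did not pass. Of 13 tested non-keratin filament genes, 3 fell in the NF-YAl line and 0 in the NF-YAs line, beside 3.48% and 3.83% of all tested genes. None of the 13 rose in either line, beside 4.73% and 5.42% of all tested genes. NEFL, a neurofilament, fell in NF-YAl (log2FC -1.27, adjusted p = 1.16e-05), as did the lens filament gene BFSP1 (log2FC -1.26, adjusted p = 0.000485).

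The list of epithelial transcription factors, which keep up epithelial genes or repress them, held 24 tested genes. In the NF-YAl line 1 rose (4.17%) and 2 fell (8.33%), beside 4.73% and 3.48% of all tested genes. In the NF-YAs line 2 rose (8.33%) and 5 fell (20.8%), beside 5.42% and 3.83% of all tested genes. ELF3, an epithelial ETS factor, had 31.9 to 54.4 CPM in Empty, 6.75 to 15.4 in the NF-YAl line and 1.34 to 2.10 in NF-YAs. It fell in both lines, by log2FC of -2.16 (adjusted p = 0.000353) and -4.63 (adjusted p = 7.09e-06). EHF, a related factor, fell in NF-YAs (log2FC -3.11, adjusted p = 1.14e-05) and was higher in NF-YAl than in NF-YAs (log2FC 2.71, adjusted p = 7.50e-05). SNAI2, a factor of epithelial-mesenchymal transition, rose in NF-YAs (log2FC 1.82, adjusted p = 4.90e-05) and SNAI1 fell there (log2FC -1.63, adjusted p = 0.000193). TP63, the basal cell factor, rose in NF-YAl (log2FC 1.19, adjusted p = 0.00119) with 7.57 CPM on average against 3.32 in Empty. No test links these genes to the keratins.

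The list of prostate basal and luminal markers, which itself holds keratins, had 20 tested genes. Of these, 5 rose and 4 fell in the NF-YAl line and 2 rose and 2 fell in the NF-YAs line. Over all tested genes 4.73% rose and 3.48% fell in NF-YAl, and 5.42% rose and 3.83% fell in NF-YAs. Those shares also stand beside the counts of the lists that follow. TMPRSS2, a luminal protease, fell in both (log2FC -1.72, adjusted p = 3.68e-05, and -2.59, adjusted p = 2.44e-06). EPCAM rose in both lines (log2FC 2.16, adjusted p = 4.03e-05, and 1.46, adjusted p = 0.000753), opposite in direction to most keratins, and the adherens junction cadherin CDH1 fell in NF-YAs (log2FC -1.33, adjusted p = 0.00075) and had a log2FC of 0.17 in NF-YAl. Of 12 tested genes of the cornified envelope 1 rose and 3 fell in the NF-YAl line and 0 rose and 3 fell in the NF-YAs line. Of 19 tested keratin chaperones and modifiers, TRIM21 fell in NF-YAl (log2FC -1.39, adjusted p = 3.88e-05), and in NF-YAs BAG3 rose (log2FC 1.08, adjusted p = 6.20e-06) and HSPA1A fell (log2FC -1.27, adjusted p = 1.48e-05).

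Outside the keratin family, the genes whose pattern over the 9 libraries was most like each keratin were found by the root mean square (RMS) difference of log2 CPM, each gene centred on its own mean. KRT8 was nearest to GM2A, a lysosomal cofactor (RMS difference 0.0558 log2 units, beside an SD of 0.584 for KRT8 itself). KRT18 was nearest to THOC6 (0.0581) and KRT19 to SESN2 (0.0587). KRT81 was nearest to PRRG4 (0.119), with TSPAN8 (0.158) also among its first 3, and KRT80 to PDLIM1 (0.146) and MYEOV (0.159). KRT38 was nearest to CDH3, the P-cadherin of basal epithelium (0.405, beside an SD of 1.77). KRT7 was nearest to GATA2-AS1 (0.70, beside an SD of 2.16), and both values were the largest among the tested members.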

How the data were processed

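Stranded total RNA libraries of PC-3 MTSs (Empty, NF-YAl, NF-YAs, 3 each) were compared by the groups in the sample labels. The authors aligned reads with bowtie2 within RSEM to RefSeq transcripts of GRCh37/hg19, per the paper's methods, and deposited unnormalized expected counts of genes and transcripts, in which multi-mapping reads are shared. The authors also deposited TPM, which sum to one total per library, and for transcripts the percent of the gene's TPM.

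Tests used edgeR 4.0.16 (R 4.3.3) on expected counts of genes after rounding: filterByExpr, TMM, all 9 libraries in 1 robust quasi-likelihood fit, Benjamini-Hochberg adjustment, and calls at an adjusted p under 0.01 with |log2FC| above 1. SE was |log2FC| over the square root of F. Transcript shares were compared by exact permutation tests. Whole-number sums used a tolerance of 0.02. A value of 0 allows up to 3 counts, which covers counting error only.

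The 10 keratins, the gene lists and the rules were chosen with earlier results of these data known. Genes were named if they were members, other keratins called or with at least 1 CPM, up to 4 called genes per list and comparison with at least 5 CPM and no overlap between libraries, or DSP, JUP, PLEC, VIM, EPCAM, CDH1, TP63 and NFYA, and the 3 nearest patterns per member. The text names a part of these, and PECAM1, VWF and CD68 from the marker lists after their values were seen.

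Alternatives were DESeq2 1.42.0, RLE scaling, a minimum of 10 counts in every library, no filter on counts, fits of only 2 groups, a block for the replicate letter, each library left out, an adjusted p under 0.05, relatives summed, transcript counts and, added after seeing the data, limma 3.58.1 on log2(TPM + 1). Letters were not taken to pair the libraries. The procedure was tested on simulated data. RefSeq promoters (GRCh38.p14) and GENCODE transcripts (GRCh37) gave sequences and positions. Some named genes and sequences are not reported here.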

Additional observations from a re-analysis of the deposited data

Results flagged for a closer look

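In the direct comparison of the NF-YA lines, 5 of the 20 tested keratins differed. Each passed edgeR's quasi-likelihood test of NF-YAl against NF-YAs adjusted over all tested genes. Of the 20, 3 were higher and 2 lower in NF-YAl, beside 1.69% and 2.82% of all tested genes. KRT7 differed by a log2FC of 4.61, NF-YAl having 0.76 against Empty and NF-YAs -3.85. KRT38 differed by 1.78, from -2.20 and -3.98. This call was lost without NF-YAl replicate A or NF-YAs replicate A (1.77 in either case). It was also lost when KRT38 was summed with the type I hair keratins KRT31 to KRT37 (0.39), a sum that follows the more abundant KRT37 by construction. KRT80 differed by -1.18, from -1.47 and -0.29. Among keratins outside the 10, KRT20 differed by 1.22 (adjusted p = 0.00104), from 0.52 and -0.70, and KRT83 by -1.98 (adjusted p = 0.0022), from -2.49 and -0.51. The KRT83 call was lost without NF-YAs replicate B (-1.81), where the adjusted p limit was missed. The values of KRT7, KRT38 and KRT80 come from the comparisons already known when these genes were chosen. Groups of 3 libraries are too small for a search for single outlying libraries.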

How the results depend on the processing

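For the 9 tested members, which leave out KRT17, 491 of 513 values recomputed under 19 settings kept their direction and their side of the thresholds. DESeq2 called the same 9 and 6 keratins against Empty, and between the NF-YA lines it added KRT15 to the 3 that were higher in NF-YAl. With limma on log2(TPM + 1), 4 keratins fell in NF-YAl instead of 9, 3 fell in NF-YAs instead of 6, 1 rose in NF-YAl (KRT15), and 0 were lower in NF-YAl than in NF-YAs instead of 2. KRT8 (-1.04), KRT80 (-0.87), KRT6B (-0.62) and KRT37 (-0.95) lost their call in NF-YAl there, as did KRT86 (-0.97) in NF-YAs, and KRT16, KRT36 and KRT83 were not tested, with a mean under 1 TPM. With the same setting PLEC in NF-YAs turned to 0.055 and KRT32 in NF-YAl to 0.14, and the cause was not tested. At an adjusted p under 0.05, 1 keratin rose in NF-YAl (KRT14) and 6 were higher in NF-YAl than in NF-YAs, and with at least 10 counts in every library 1 was lower, since KRT83 was not tested. That filter also left 8 keratins that fell in NF-YAl (KRT83 lost) and 4 in NF-YAs (KRT16 and KRT36 lost), and 4 that were higher in NF-YAl than in NF-YAs (KRT15 gained). Leaving out a library gave 0 to 2 keratins that rose in NF-YAl, the 2 being KRT14 and KRT15 without NF-YAl replicate D. In those fits KRT32 in NF-YAl ranged from -0.19 to 0.11 and KRT34 in NF-YAl from -0.83 to 0.047. Summed with KRT19, KRT15 in NF-YAl was -0.26, by construction. Transcript-level counts lost the calls of KRT75 (-1.38) and KRT80 (-1.29) in NF-YAl and those of KRT38 (1.79) and KRT80 (-1.15) between the NF-YA lines, where the adjusted p limit was missed at folds close to those of the genes.

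With the replicate block the keratin counts were unchanged at 9, 6, 3 and 2, and KRT32 in NF-YAl turned to 0.079. The labels do not say what the letters mark. Correlations of deviations ranged from -0.0652 to 0.253 in the 7 pairs of libraries with the same letter, 3 of them above 0.1, and from -0.22 to 0.163 in pairs with different letters, so the letters were not taken to pair the libraries.

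Counts over all genes moved too. With TPM, 196 genes fell in NF-YAl instead of 595, and 481 rose and 241 fell in NF-YAs instead of 927 and 655. Without a single library, genes higher in NF-YAl than in NF-YAs ranged from 166 to 399 around 289.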
